A study of Mus musculus with 4 samples.

Results

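Single-exon isoforms of Ensembl genes were taken from a catalogue of long-read transcript models of the mouse retina. A member was a model with exactly 1 exon whose gene carried a mouse Ensembl identifier, and 586 of the 36426 models met this rule. They belonged to 552 genes and held 781786 counts, 0.522% of all counts. In 239 of these genes every deposited model had a single exon (254 models, 445766 counts), and these are called intronless genes below. In the other 313 genes a multi-exon model was deposited as well (332 models, 336020 counts), and these are called mixed genes.

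The mice were male, wild type and of the C57BL6/J strain, and their dissociated retinas gave 4 single-cell libraries whose cDNA was read in full length by nanopore sequencing. Of these, 2 libraries had no enrichment, 1 of them from postnatal day 40 and the other with no age in its labels. Another library, from postnatal week 8, is labelled as CD73 enriched, CD73 being a surface protein of photoreceptors, and the last, from postnatal month 4, as enriched for CD90.2, a surface protein of neurons. The extraction protocol describes magnetic removal of CD73-positive cells and magnetic selection of CD90.2-positive cells, while the series design text names flow sorting for both. The deposited counts are given for 6 cell classes with no library named. These are rods and cones, the bipolar (BC) and amacrine (AC) interneurons, the retinal ganglion cells (RGC) that form the optic nerve, and the Müller glia (MG). Each class is therefore 1 pooled column without replicates, no test between classes was possible, and class cannot be told apart from age or enrichment. Differences are described by size, and 95% intervals cover counting error alone, because reads need not be independent molecules. Column totals ranged from 3509890 counts (RGC) to 55437340 counts (rods), and CPM below is counts scaled to a column total of 1000000. A count of 0 allows up to 3 counts, which is 0.0541 CPM in rods and 0.855 CPM in RGC. Summed over 6 markers, each of the 6 classes was highest in its own column. Markers of pigment epithelium, which has no column, summed to 9480 CPM in the MG column against 2.85 to 65.9 CPM elsewhere. Those of microglia summed to 2377 CPM in MG against 11.1 to 983 CPM. For endothelium the sums were 193 CPM in MG against 5.01 to 27.2 CPM, and for astrocytes 120 CPM against 2.74 to 40.0 CPM. Horizontal cells also have no column, and 4 of their 6 markers were in the table. These summed to 264 CPM in BC against 17.3 to 98.8 CPM elsewhere, and their part in the BC levels below was not tested.

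Most mouse genes are split by introns that are removed from the transcript. Genes without introns include the replication-dependent histones, several immediate early genes, some heat shock and channel genes, and retrocopies, which arise when the mRNA of a spliced gene is copied back into the genome. In a gene with introns, a transcript with 1 exon can be an unspliced or partly spliced RNA, or one that starts or ends inside the gene. The libraries were made from poly(A) RNA.

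The sequences below show how closely some members of the intronless set match a spliced gene. Whether their counts depend on how reads were placed was not tested. Each is a stretch of 90 coding bases from a single-exon member and from the spliced gene it resembles, taken from the GENCODE M21 transcripts (mouse build GRCm38). Capitals mark the bases at which copy and spliced gene differ, and each stretch of the spliced gene crosses a splice junction. In Rpl9, Phb and Ppia the junction lies after base 46, and in Kpna2 after base 15. The first set is Rpl9, which encodes a protein of the large ribosomal subunit, with its copies Rpl9-ps6 (chr19:32466462-32466551, minus strand) and Rpl9-ps1 (chr11:83645532-83645621, minus strand).

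Rpl9: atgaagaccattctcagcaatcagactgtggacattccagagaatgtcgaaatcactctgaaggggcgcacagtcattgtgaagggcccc
Rpl9-ps6: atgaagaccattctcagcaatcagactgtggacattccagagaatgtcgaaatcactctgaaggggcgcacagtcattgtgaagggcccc
Rpl9-ps1: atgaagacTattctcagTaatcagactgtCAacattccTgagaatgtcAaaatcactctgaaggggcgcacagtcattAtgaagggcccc

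The stretch of Rpl9-ps6 is the same as that of Rpl9, and the stretch of Rpl9-ps1 differs at 7 bases. The second set pairs Kpna2, an importin alpha that carries proteins into the nucleus, with Gm10184 (chr17:89909576-89909665, minus strand), the third pairs Phb, the inner-membrane protein prohibitin, with Gm7666 (chr15:6654127-6654216, plus strand), and the fourth pairs Ppia, the prolyl isomerase cyclophilin A, with Gm6061 (chr3:122257044-122257133, plus strand).

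Kpna2: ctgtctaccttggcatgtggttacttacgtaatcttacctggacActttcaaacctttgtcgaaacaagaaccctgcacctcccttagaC
Gm10184: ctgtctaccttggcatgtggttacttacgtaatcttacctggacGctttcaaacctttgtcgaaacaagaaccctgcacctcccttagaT
Phb: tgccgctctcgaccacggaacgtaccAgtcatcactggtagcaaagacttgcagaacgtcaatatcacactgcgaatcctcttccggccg
Gm7666: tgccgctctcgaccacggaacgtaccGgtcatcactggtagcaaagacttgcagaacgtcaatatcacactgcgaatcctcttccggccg
Ppia: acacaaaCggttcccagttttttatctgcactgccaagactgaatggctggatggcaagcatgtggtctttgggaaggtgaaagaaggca
Gm6061: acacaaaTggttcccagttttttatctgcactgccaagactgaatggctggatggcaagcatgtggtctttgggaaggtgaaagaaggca

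These stretches hold every base at which Kpna2, Phb and Ppia differ from their copies over the aligned coding sequence, 2 bases in 1590 for Kpna2, 1 in 819 for Phb and 1 in 492 for Ppia. Over the 579 coding bases of Rpl9, Rpl9-ps6 differed at 1 base, which lies outside the stretch shown.

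The 3′ ends of 3 intronless members and of Nap1l5, a mixed gene, are shown because they carry a polyadenylation signal. Each line gives the last 30 bases of the model as annotated, with capitals for AATAAA, the hexamer that directs cleavage and polyadenylation.

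H1f0: aactttaaAATAAAactggaaaggaaaaaa
Sephs2: taactaAATAAAagggactttgttggaaaa
Kcna5: caggaAATAAAatgtgactctgtcgggcaa
Nap1l5: tcaaaAATAAAaaaatccttgttattctga

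H1f0 lies at chr15:79030475-79030504 (plus strand), Sephs2 at chr7:127271879-127271908, Kcna5 at chr6:126532551-126532580 and Nap1l5 at chr6:58905233-58905262, the last 3 on the minus strand. Replication-dependent histone mRNAs end instead just after a stem-loop and lack a poly(A) tail. The stem-loop was searched for as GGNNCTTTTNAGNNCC on the transcript strand and is in capitals in 3 histone members.

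H2afx: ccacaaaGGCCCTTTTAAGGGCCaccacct
Hist1h3e: ccaaaacGGCTCTTTTAAGAGCCacctcca
Hist1h3d: ccccaaaGGCTCTTTTCAGAGCCacccccg

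These stretches lie at chr9:44335233-44335262 (plus strand), chr13:23561896-23561925 (minus strand) and chr13:23576237-23576266 (plus strand). The models ran 822, 679 and 989 bases past the stem-loop. Of the 21 histone members with the stem-loop, however, 11 ended within 100 bases of it.

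The intronless and mixed genes gave different kinds of model. In the intronless set, 230 of 254 models belonged to genes whose M21 transcripts all have 1 exon, while 24 belonged to genes that M21 annotates with several exons. Of its 198 models of coding genes, 181 (91.4%) held the whole of the gene's longest coding sequence in M21. In the mixed set 26 of 327 (7.95%) did so, and the median model held 4.59% of it. M21 gives several exons to the genes of 330 of the 331 matched mixed models, so this contrast follows in part from how the sets were split. Counting any annotated coding sequence of the gene, which can be a short one, 184 (92.9%) and 42 (12.8%) held it whole. M21 types 293 of the 332 mixed models (88.3%) by their best-overlapping one-exon transcript as retained intron, a class for transcripts that keep intron sequence, and these held 149596 counts. Only 27 mixed models overlapped a one-exon coding transcript best, but they held 175581 counts, of which Nap1l5 alone had 154140. An annotated intron lay wholly inside 119 mixed models (36%) and 12 intronless ones (4.72%).

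**Figure D1:**
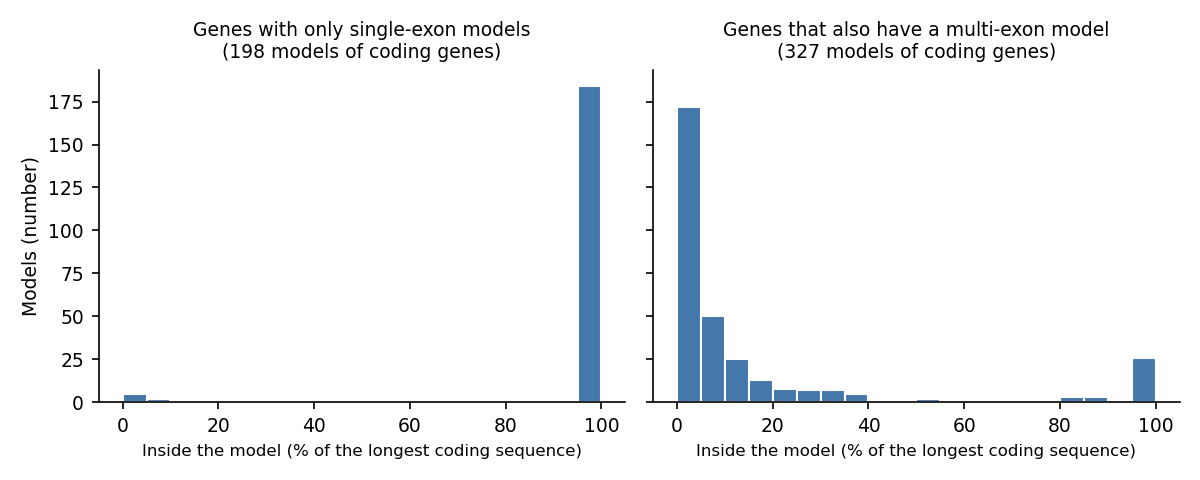
Histograms of the share of a gene's longest coding sequence that lies inside a single-exon model (x axis, percent) against the number of models (y axis), for 198 models of intronless genes (left) and 327 models of mixed genes (right). The intronless models pile up at 100%, whereas most mixed models hold little of the longest coding sequence and 26 hold all of it.

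A member had a median length of 2282 bases (271 to 4605) and a median of 81.5 counts. Counts were uneven, with 6 models holding at least 50% of all member counts. The deposited counts do not state whether strand was used, and 80 intronless and 39 mixed models overlapped an exon of another gene on the opposite strand, so reads of the partners cannot be told apart. An exon of another gene on the same strand overlapped 64 intronless and 18 mixed models. For example, Gm19409 and Hist1h2be below lie over exons of Mapre3 and Hist1h1e, and their counts are uncertain in the same way.

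Near-identical copies of spliced genes held 252455 counts, 56.6% of the intronless set, in 19 models. A copy was called at 90% identity or more over at least 50% of the model, with at least 1 splice junction of the other gene inside the alignment. Their share of intronless counts was 51.0% in AC, 57.5% in BC, 62.6% in cones, 43.0% in MG, 59.8% in rods and 63.0% in RGC. The mixed set held 1 such model, of Abcb1b, with 53 counts.

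Rpl9-ps6 (chr19:32465865-32466578) had the most counts of the intronless set, 89474, against 40860 for Rpl9. Its level was 527 CPM in AC, 679 in BC, 458 in cones, 564 in MG, 652 in rods and 402 in RGC. Of the counts of the pair, Rpl9-ps6 took between 67.5% (AC) and 71.5% (MG) in the 6 classes, a nearly fixed proportion. Rpl9-ps1, whose alignment with Rpl9 differed at 27 of 569 bases, had 1085 counts, 911 of them in BC. It stood at 31.4 CPM in BC, 10.4 in cones and 9.95 in MG, under 1 CPM in AC and rods, and at 0 in RGC, so its class pattern was unlike that of Rpl9-ps6.

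Gm10184 (chr17:89908452-89910449) had 60023 counts, while the spliced gene Kpna2 had 2382. The copy stood at 937 CPM in rods (929 to 945), 457 in cones, 149 in MG, 109 in BC, 16.8 in RGC and 12.3 in AC. Its share of the pair's counts was 93.1% in BC and 98.3% in RGC at the extremes, so copy and spliced gene shared the photoreceptor-high pattern. Gm10053 (chr19:24875686-24876883), a copy of the cytochrome c gene Cycs, had 54313 counts against 97025 for Cycs. Its share of the pair was lowest in BC (27.2%, 26.7 to 27.7) and highest in RGC (46.2%, 44.8 to 47.5). The coding bases of Gm10053 and Cycs were identical, and 1 of 946 aligned bases differed.

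Gm7666 (chr15:6653863-6654886), a transcribed pseudogene of Phb that also overlaps an exon of Fyb, had 22861 counts against 9417 for Phb. Its share of the pair was 58.6% in AC and 66.1% in RGC, and 75% to 78.7% in the other 4 classes. Rps27rt (chr9:114982366-114982739), a copy of the small-subunit ribosomal protein gene Rps27 with 0 of 341 aligned bases different, took 56.3% of the pair in rods (54.8 to 57.8) and 24.8% in RGC (20.1 to 30). Nutf2-ps1, a copy of the nuclear import factor gene Nutf2 with 0 of 868 bases different, took 18.1% in rods and 42.1% in MG (33.2 to 51.5). Gm6061, which also overlaps an exon of Gclm, took 0.965% to 1.74% of the counts of the pair with Ppia. Eno1b, a copy of the glycolytic enzyme gene Eno1, took 1.81% to 2.53% of its pair. The intervals separated at least 1 pair of classes for each of these copies, and the differences in percentage points were largest for Rps27rt, Nutf2-ps1, Gm7666 and Gm10053. How reads were assigned between copy and spliced gene is not given in the sources used here, and its part in these shares was not tested.

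**Figure D2:**
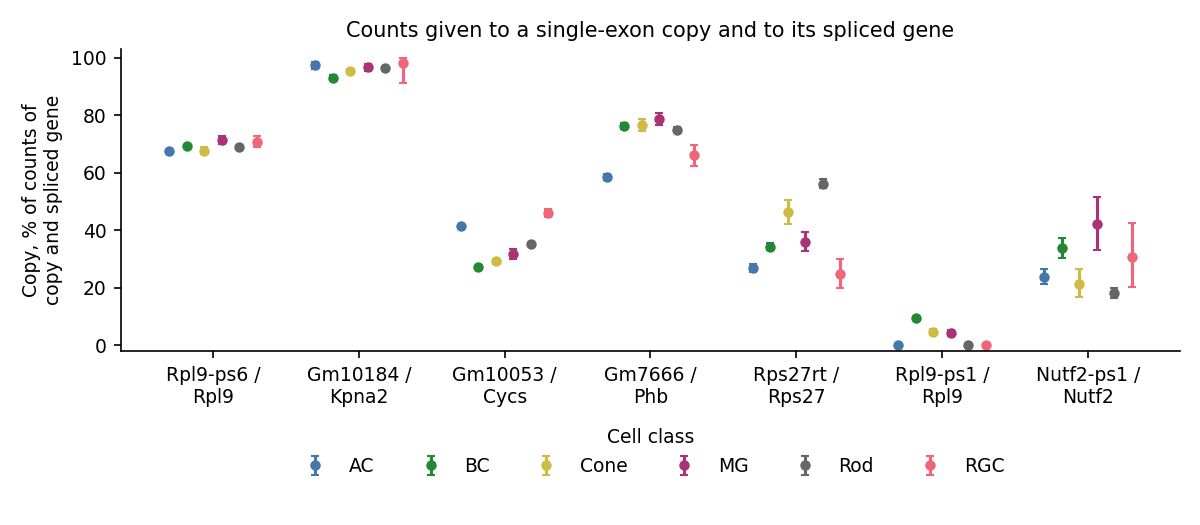
Counts of a single-exon copy as a percent of the counts of copy and spliced gene together (y axis) for 7 pairs (x axis) in 6 classes (colours), with exact 95% intervals for counting error. Rpl9-ps6 stays between 67.5% and 71.5%, whereas Rps27rt spans 24.8% to 56.3%.

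Among the other abundant intronless genes, H2afx and H1f0 encode histone variants. H2afx, a variant that is phosphorylated at DNA breaks, had 24111 counts and stood at 242 CPM in rods, 152 in cones, 122 in AC, 95.7 in BC, 94.6 in RGC and 93.1 in MG. H1f0, a linker histone of cells that have left the cell cycle, had 18438 counts and stood at 269 CPM in AC, 141 in RGC, 67.9 in BC, 57.7 in MG, 42.7 in rods and 38.9 in cones. H1f0 was thus highest in AC and RGC and H2afx in the photoreceptors. Both models, and that of H2afj in the mixed set, ended at an annotated transcript end.

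Histone genes as a whole gave 32 members from 31 genes, a group formed by gene symbol after the values were seen. H2afx, H1f0 and H2afj held 46507 of their 52617 counts. The stem-loop motif, 16 bases long, was found in 21 of the 32, in 2 of the other 553 members with a sequence, and in 46 of 2812 one-exon coding transcripts of M21. Whole coding sequences were held by 31 of the 32, the exception being the Hist1h2be model. The 29 members other than H2afx, H1f0 and H2afj summed to 117 CPM in MG, 57.2 in BC and 39.7 in rods. The sums were 27.3 CPM in AC, 22.9 in cones and 13.1 in RGC. Member by member, 12 of the 29 were highest in BC, 9 in MG, 5 in rods, 2 in AC, 1 in cones and 0 in RGC. Of all 122 intronless members with at least 100 counts, 22 were highest in BC, 20 in MG and 35 in rods. A further 25 were highest in AC, 8 in cones and 12 in RGC. The 29 had no such minimum, and the smallest, Hist1h4i, had 6 counts. Many histone genes are near-identical to each other, so their counts are uncertain gene by gene. Hist1h3e, named after its values were seen, had the most counts of the stem-loop histones after H2afx, at 44.3 CPM in MG and 0 to 7.79 CPM elsewhere.

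Sephs2, a selenophosphate synthetase that is itself a selenoprotein, stood at 135 CPM in rods, 80.1 in AC, 48.9 to 50.4 in BC, cones and RGC, and 23 in MG. Slc25a27, a mitochondrial carrier of the uncoupling protein family, has several exons in M21, but its deposited model had 1, which held the coding sequence of a short transcript and 10.6% of the longest coding sequence of the gene. It stood at 178 CPM in BC, 121 in rods, 95 in AC, 86.2 in cones, 64.7 in MG and 50.7 in RGC. Hspa1a, the inducible heat shock protein 70, stood at 290 CPM in MG (277 to 304), 177 in rods, 58.3 in cones, 29 in BC, 10.2 in AC and 0 in RGC. Another gene, at 90% identity or more, makes the counts of Hspa1a uncertain. The Hspa1a levels in MG and rods were therefore above those of the 3 inner neuron classes by more than counting error.

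Immediate early genes without introns gave 4 members from a list of 10 genes, Jun, Junb, Jund and Rhob. Jun and Junb are subunits of the AP-1 transcription factor and Rhob is a small GTPase, and all are induced quickly by stimuli. Jun had 2588 of its 6130 counts in the MG column, at 422 CPM (406 to 439), against 43.4 in rods, 28.7 in cones, 12.5 in BC, 11.6 in AC and 1.14 in RGC. Junb stood at 31.8 CPM in MG and 4.23 to 11.1 elsewhere, and Rhob at 43.5 CPM in MG and 9.0 to 18.4 elsewhere. All 3 were highest in the MG column, 9.72-fold above rods for Jun, 2.86-fold for Junb and 3.09-fold for Rhob. Markers of microglia and pigment epithelium were also highest in that column, with the sums given above, and their part in these levels was not tested. Jun overlaps the antisense gene Junos.

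Of 27 genes for receptors and channels with an intronless coding region, 18 were in the table and 3 had a member. Kcna5, a voltage-gated potassium channel of the Shaker family, had the most counts, at 110 CPM in BC (106 to 113), 44.6 in AC and 2.28 to 4.40 in the other classes. Of 22 intronless SOX, POU, FOX and bHLH transcription factors, 3 were in the table and 1 had a member. This was Bhlhe23, which is needed for rod bipolar cells, at 6.65 CPM in BC (5.75 to 7.66), 0.956 in rods, 0.0622 in AC and 0 in cones, MG and RGC. Kcna5 and Bhlhe23 were both highest in bipolar cells. The Bhlhe23 model overlaps an exon of Gm14343 on the same strand, so its counts are uncertain. The 15 mitochondrially encoded genes were not in the table. Of 9 nuclear long noncoding RNAs, 5 were in the table and gave 0 members. All 28 phototransduction genes and 12 Müller glia genes, which have introns, were in the table and gave 0 members. Over all Ensembl genes, 586 of 33653 models had a single exon, so 0 members in lists this short is not taken as a trait of the lists.

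**Figure D3:**
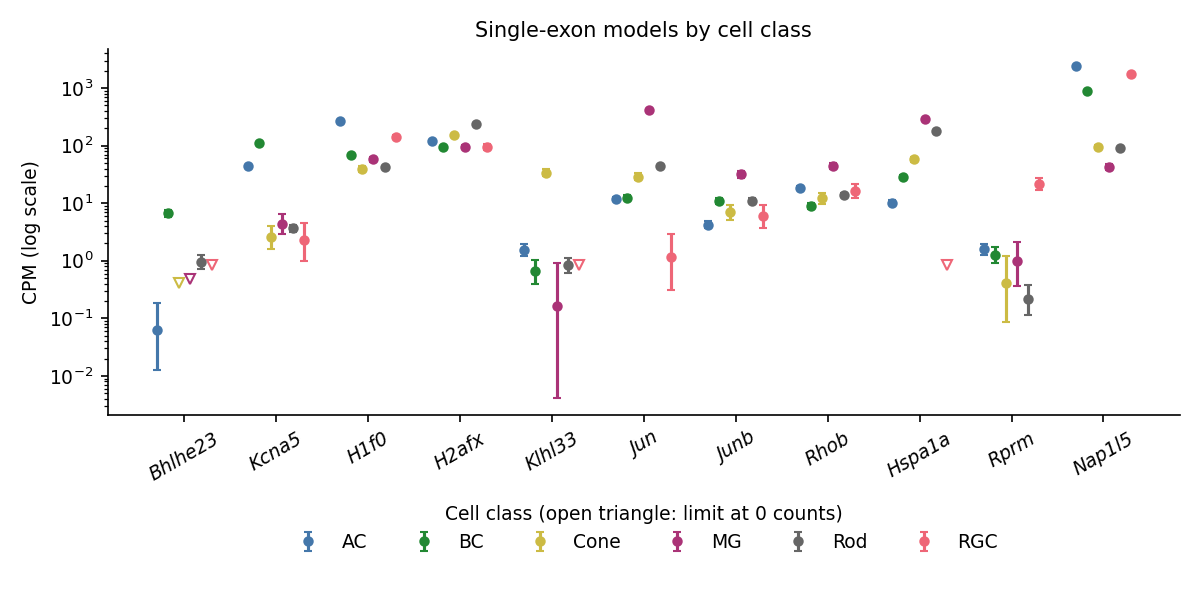
Level of 11 single-exon models (x axis) in CPM on a log scale (y axis) in 6 classes (colours), with exact 95% Poisson intervals for counting error and open triangles at the limit of a count of 0. Jun, Junb, Rhob and Hspa1a are highest in MG, Bhlhe23 and Kcna5 in BC, and Nap1l5 in AC, RGC and BC.

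A member counted as class-restricted if 1 class held 80% or more of its CPM summed over classes, given 10 or more counts in all. This held for 80 of 556 members (14.4%), against 19.2% of all isoforms with a model. By class, 32 were restricted to rods, where 7.97% of all isoforms with a model were, 15 to AC (beside 3.01%), 13 to MG (beside 3.91%), 10 to BC (beside 2.11%), 6 to RGC (beside 1.21%) and 4 to cones (beside 1.02%). The intronless set gave 46 of 244 (18.9%) and the mixed set 34 of 312 (10.9%), so the share of mixed models was the lower. Since a model in this deposit always had a rod count, an isoform absent from rods could not be a member.

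The class-restricted intronless member with the most counts was Rnf138rt1 for AC, Bhlhe23 for BC, Klhl33 for cones, Jun for MG, Gm19409 for rods and Rprm for RGC. Rnf138rt1, a retrogene of the ubiquitin ligase Rnf138 on the X chromosome, stood at 2.88 CPM in AC (2.42 to 3.4), with 4 counts in MG, 1 in rods and 0 in the other 3 classes. Klhl33, a protein of the kelch family, stood at 34.1 CPM in cones (30 to 38.6), 1.55 in AC, 0.830 in rods and 0.655 in BC, with 1 count in MG and 0 in RGC. The Klhl33 model is typed as retained intron and spans 1 annotated intron, and every model of the gene analysed here had 1 exon.

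Rprm, a gene of cell cycle arrest downstream of p53, stood at 21.7 CPM in RGC (17.1 to 27.1) from 76 counts, 1.60 in AC, 1.28 in BC, 0.978 in MG, 0.411 in cones and 0.216 in rods. It was 13.6-fold above AC, the next class. Gm19409, a noncoding transcript in the sense orientation of Mapre3, had 162 counts in rods, at 2.92 CPM. Kcne1l, an accessory subunit of potassium channels that was named after its values were seen, stood at 188 CPM in MG and 0 to 3.54 CPM elsewhere.

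In the mixed set the restricted members with the most counts were Zmat4 for AC, Ntng1 for BC, Ccdc30 for cones, Ctsh for MG, Gtf2h3 for rods and Picalm for RGC. Zmat4, a zinc finger protein, stood at 23.6 CPM in AC (22.2 to 25), 2.76 in BC and 1.47 in MG, and under 0.5 CPM in the other classes. Ntng1, the membrane-bound axon guidance protein netrin-G1, stood at 12 CPM in BC (10.8 to 13.4), 0.821 in cones, 0.289 in rods and 0.207 in AC, with 0 counts in MG and RGC. Ctsh, the lysosomal protease cathepsin H, stood at 45.8 CPM in MG (40.6 to 51.5) and 0 to 4.15 elsewhere. The MG column also had the highest sums for markers of microglia and other cells without a column, and their part in the Ctsh level was not tested. Picalm, a clathrin assembly protein, rested on 25 RGC counts, at 7.12 CPM (4.61 to 10.5) against 0 to 0.489 elsewhere. Gtf2h3, a subunit of the transcription and repair factor TFIIH, stood at 3.17 CPM in rods and had 9 counts in AC, 15 in BC and 0 elsewhere. All of these except Ccdc30 and Ntng1 are typed as retained intron. Ccdc30 overlaps no one-exon transcript of M21, and its model ends 21893 bases from the nearest annotated transcript end of the gene.

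The values on both sides of the threshold were close, with Pxylp1 at 80.10% (BC) and Ufsp1 at 80.05% (rods) just inside and Gpr85 at 79.85% and Top2b at 79.58% (both AC) just outside.

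Against rods, the mixed models were more often low in Müller glia. At 4-fold or more with at least 10 counts in the 2 columns, 80 of 240 mixed models (33.3%) and 29 of 173 intronless ones (16.8%) were lower in MG, where 14.0% of all isoforms with a model were lower. A count of 0 was set to 3 counts, so ratios against it are bounds. The median MG to rod ratio was 0.565 for mixed and 1.11 for intronless models, beside 0.977 over all isoforms. Higher in MG were 18 mixed (7.50%) and 28 intronless models (16.2%), beside 12.9%. Cones gave the same order, with 45 of 234 mixed (19.2%) and 20 of 168 intronless models (11.9%) lower than in rods, beside 9.0% of all isoforms. Higher in cones were 24 of 402 members (5.97%), beside 5.65%. Median cone to rod ratios were 0.601 and 0.847 in the 2 sets, beside 0.910.

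In AC 113 of 506 members were higher than in rods (22.3%, beside 19.8%) and 133 lower (26.3%, beside 28.4%). In BC 82 of 477 were higher (17.2%, beside 14.9%) and 104 lower (21.8%, beside 18.7%). In RGC 35 of 404 were higher (8.66%, beside 11.4%) and 81 lower (20.0%, beside 14.8%). The pooled shares in AC and BC were thus near the background, but the sets differed. Higher in AC were 60 of 215 intronless (27.9%) and 53 of 291 mixed models (18.2%). In BC these were 47 of 207 (22.7%) and 35 of 270. Lower in AC were 64 of 215 and 69 of 291, and in BC 42 of 207 and 62 of 270, in that order. In RGC 22 of 171 intronless (12.9%) and 13 of 233 mixed models (5.58%) were higher, and 25 (14.6%) and 56 lower. These comparisons share the rod column. Other scalings moved the median over all isoforms, on the log2 scale, from -0.54 to between -0.77 and -0.28 in AC, and from -0.03 to 0.20 and 0.34 in MG, and the members' MG median from -0.41 to -0.18 and -0.04, below that of all isoforms each time. With at least 50 counts in the pair of columns, which leaves fewer counts of 0 at their bound, the members' median was -1.67 in MG (beside -0.85) and -0.36 in AC (beside -0.19). In AC the members thus lay above all isoforms with the minimum of 10 counts (-0.24 beside -0.54) and below them with 50.

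The single-exon share is the part of a gene's counts that fell on models without a splice. Over 312 mixed genes with at least 20 counts the median share was 18.5% (quartiles 8.32 and 48.2, range 2.05 to 97.6). It was at least 50% in 72 genes (23.1%) and at least 90% in 9. In 100 of 313 mixed genes the modelled isoform with the most counts had 1 exon. Yae1d1 and Amigo2, both at 49.0%, lay just under the line of 50%, and Zfp536 (50.5%) and Syt17 (51.1%) just above. In intronless genes the share was 99.3% to 100% in every class, the rest being on isoforms without a model. A share near 100% follows from the definition of this set, whose genes have no multi-exon model.

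By class, single-exon models took 49.6% of mixed gene counts in AC (49.4 to 49.7), 42.9% in RGC (42.2 to 43.6), 34.6% in BC, 29.4% in rods, 24.2% in cones and 13.3% in MG (12.8 to 13.7). Nap1l5 alone decided this order. Without it the shares were 28.3% in rods, 24.2% in AC, 22.5% in cones, 21.8% in BC, 17.1% in RGC and 12.4% in MG. Models typed as retained intron gave 28.0% in rods, 22.8% in AC, 21.3% in BC, 20.7% in cones, 15.2% in RGC and 11.6% in MG. In both of these counts without Nap1l5, MG was lowest and rods highest. This order is one of summed counts. The median share per gene was 22.3% in AC, 18.9% in rods, 13.4% in cones, 11.6% in BC, 6.02% in MG and 2.87% in RGC. These medians rest on 92 genes (RGC) to 276 genes (rods). Every model had a rod count, so a gene entered the mixed set only with its single-exon model seen in rods. The part of this selection in the rod share was not tested.

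**Figure D4:**
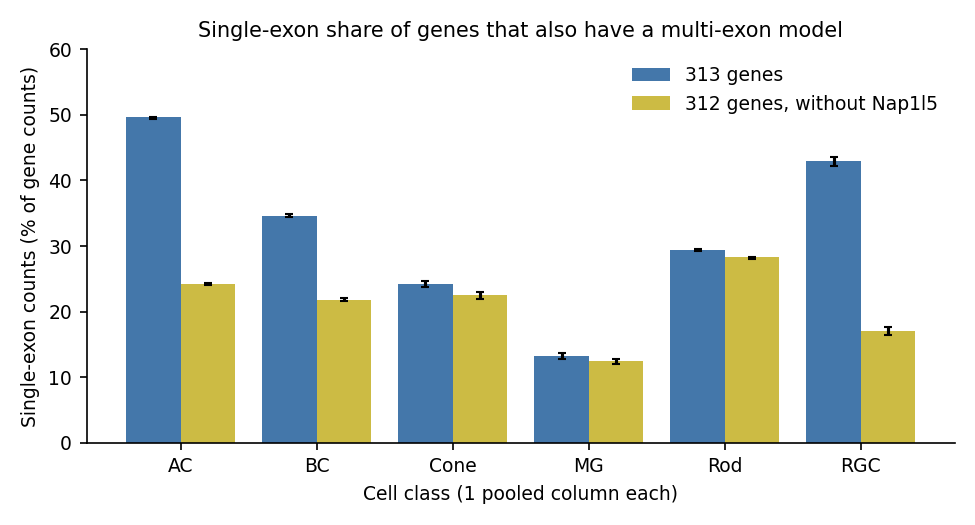
Single-exon counts as a percent of all counts of the mixed genes (y axis) in 6 classes (x axis), for all 313 genes (blue) and without Nap1l5 (yellow), with exact 95% intervals for counting error. The AC bar drops from 49.6% to 24.2% and the RGC bar from 42.9% to 17.1% without Nap1l5.

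Gene by gene, 61 mixed genes had at least 100 counts in both rods and cones, and the single-exon share was higher in rods in 53 of them, with medians of 22.9% and 12%. Between rods and BC it was higher in rods in 82 of 123 genes (medians 20.8% and 11.1%), and between rods and MG in 37 of 44 (17.3% and 5.84%). Between rods and AC it was higher in rods in 78 of 142 genes and in AC in 64 (20.4% and 17.3%). The pairs share the rod column, so they are not independent of each other. Each single-exon model also needed a rod count to be in the set. Isoforms without a model had no rod counts in these genes, so they entered only the gene totals of the other classes. What this selection adds to the higher rod shares was not tested.

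Nap1l5 (chr6:58905233-58907076), an imprinted member of the nucleosome assembly protein family inside an intron of Herc3, had the most counts of all members, 154140. It stood at 2414 CPM in AC, 1751 in RGC, 878 in BC, 95.7 in cones, 91.7 in rods and 43.0 in MG. AC, RGC and BC were thus far above the photoreceptors and glia, with AC 26.3-fold above rods. The model holds the whole coding sequence, ends at the annotated end shown above and took 97.2% of the gene's counts, with a 2-exon model taking 4435. The intronless relatives Nap1l2 and Nap1l3, named after their values were seen, were highest in RGC (62.7 CPM) and in AC (21.3 CPM) and stood at 2.93 and 4.08 CPM in MG.

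Pid1, an adaptor with a phosphotyrosine interaction domain, followed with 145 CPM in AC (142 to 149), 115 in RGC, 98.0 in MG, 13.7 in rods, 12.9 in BC and 7.80 in cones. Its single-exon model (chr1:84283162-84284611) held 4.59% of the longest coding sequence and 82.1% of the gene's counts. Gspt1, the release factor eRF3a, stood at 79.0 CPM in rods, 32.6 in cones and 2.28 to 12 in the other classes, and its single-exon model took 87.9% of the gene's counts with 18.6% of the longest coding sequence. Gspt1 has near-identical sequence elsewhere in the genome, which makes its counts uncertain. Bbip1, a subunit of the BBSome of cilia, stood at 80.9 CPM in rods and 34.2 in cones, with 0.570 to 20.3 elsewhere, but its single-exon model took only 15.6% of the gene's counts. Gspt1 and Bbip1 were both highest in rods and next in cones.

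Tssc4, an assembly factor of the U5 spliceosomal particle, stood at 42.3 CPM in AC, 41.7 in rods, 34.2 in RGC and 17.4 to 23.6 in the other classes. AC and rods did not differ beyond counting error in Tssc4 (40.5 to 44.2 and 40.0 to 43.4). Rchy1, a ubiquitin ligase acting on p53, stood at 51.4 CPM in AC, 37.5 in BC, 33.7 in rods and 14.8 to 22.0 elsewhere, at 43.3% of gene counts. Ecsit, an assembly factor of mitochondrial complex I, stood at 57.6 CPM in rods, 22.7 to 24.2 in AC, BC and cones, 12.5 in RGC and 8.32 in MG, at 41.7%. Repeated sequence makes Ecsit and Ginm1 uncertain, since stretches of their models matched 372 and 109 other genes at 90% identity or more.

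The share of a gene's counts in its single-exon model differed by at least 25 percentage points between 2 classes, with at least 100 gene counts in each, for 42 of 189 models (22.2%). The background was 17.7% over multi-exon isoforms of all genes with 2 or more isoforms and 16.6% over the multi-exon isoforms of the mixed genes. Tia1 (26.1 points) and Mynn (25.3) lay just inside the threshold, and Taf6 (24.9) and Atg12 (23.8) just outside.

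Ccdc30, a coiled-coil protein, gave the largest difference. Its single-exon model had 288 of 338 gene counts in cones (85.2%, 81.0 to 88.8), 39 of 146 in BC (26.7%), 36 of 94 in rods (38.3%) and 5 of 340 in AC (1.47%, 0.479 to 3.4). Its model with the most spliced counts, of 4 exons, had 75 counts in AC and 0 in cones. The Ccdc30 counts of the cone and AC columns thus lay mostly on different isoforms. Isoforms without a model held 188 counts of the gene. The gene assignment of the single-exon model, which ends far from any annotated end, is uncertain.

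In Ginm1, an integral membrane glycoprotein, the share was 83.6% in RGC (76.2 to 89.4), 69.3% in AC, 65.2% in rods, 64.5% in cones, 57.8% in BC and 5.95% in MG (4.39 to 7.86). MG alone was low, and its 8-exon model had 648 counts there. In Nav2, a neuron navigator protein, the share was 86.5% in AC (360 of 416 counts) and 13.8% in MG (19 of 138), and the other classes had at most 51 gene counts. In Pyroxd1, an oxidoreductase, it was 77.5% in AC (73.0 to 81.6), 21.1% in rods, 14.8% in BC and 7.14% in cones. AC thus stood apart from the other neurons in Pyroxd1, and the 12-exon model led in rods and BC with 1288 and 566 counts.

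In Hist1h2be the share was 87.6% in rods (85.3 to 89.6), 82.8% in AC and 18.8% in BC (13.3 to 25.3). The Hist1h2be model holds 0% of the coding sequence of that histone, runs over exons of Hist1h1e and Gm11398, and its gene assignment is uncertain. In Cspp1, a centrosome and ciliary protein, the share was 85.4% in RGC (78.6 to 90.7), 44.9% in AC, 35.8% in BC, 23% in rods and 17.8% in cones. The share in RGC rested on 144 gene counts.

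Lynx1, a membrane-anchored modulator of nicotinic acetylcholine receptors, showed the opposite for RGC. Its share was 78.6% in BC (77.2 to 79.9), 77.9% in cones, 62.1% in rods, 60.1% in AC and 14.6% in RGC (10.8 to 19.1). The level of the Lynx1 model was 128.0 CPM in cones and 95.7 in BC against 22.8 in AC, 12.5 in RGC, 5.71 in MG and 5.00 in rods, and its 4-exon model had 258 of the 302 RGC counts. In Inpp4a, an inositol polyphosphate phosphatase, the share was 76.4% in AC, 72.3% in rods and 21.6% in BC (17.8 to 25.6). In Ttc14, a tetratricopeptide repeat protein, it was 63.4% in rods (62.3 to 64.4), 60.5% in BC, 57.5% in cones and 10.2% in AC (9.40 to 11.1). In Ank2, the membrane adaptor ankyrin-B, it was 77.8% in rods (76.2 to 79.4), 68.3% in cones, 46.3% in BC and 25.6% in AC. No single class was low or high in these 10 genes, with AC highest in Nav2, Pyroxd1 and Inpp4a and lowest in Ccdc30, Ttc14 and Ank2 among classes with at least 100 gene counts.

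**Figure D5:**
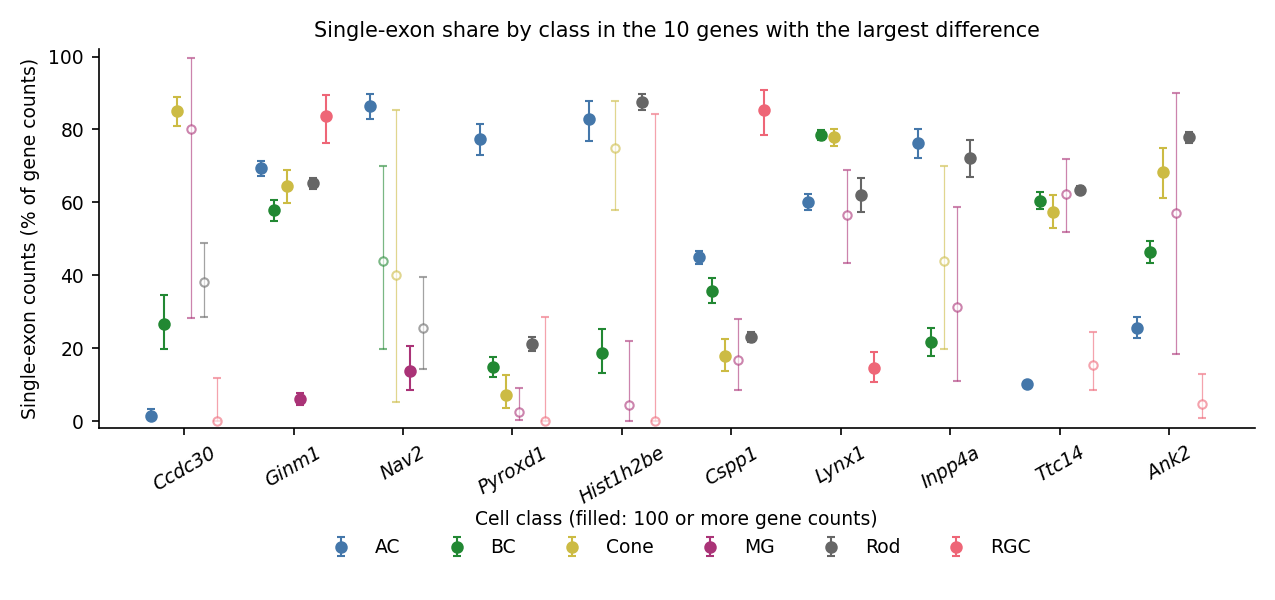
Single-exon counts as a percent of gene counts (y axis) in 6 classes (colours) for the 10 mixed genes with the largest difference between classes (x axis), with exact 95% intervals for counting error. Filled points rest on 100 or more gene counts and open points on fewer, and Ginm1 shows MG at 5.95% below all other classes.

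The 3′ ends of both sets lay near annotated ends about as often as those of spliced models. Within 50 bases of an annotated end of the gene were 62.2% of intronless, 64.7% of mixed and 62.2% of multi-exon models, but within 10 bases the shares were 56.3%, 19.3% and 62.1%. AATAAA or ATTAAA was found in the last 50 bases of 105 of 154 intronless models (68.2%), 56 of 120 mixed models (46.7%) and 19182 of 27783 multi-exon models (69.0%). Models typed as retained intron gave 38 of 94 (40.4%). The annotated ends include those of the retained intron transcripts themselves. In control windows 200 bases upstream the hexamers were found in 3.92% of intronless and 7.30% of mixed models. Ends could be read only where an annotated transcript of the gene covered them, so these counts leave out the other models. In the 20 bases after the end, at most 11 A were found in each set, of 26 intronless, 72 mixed and 13672 multi-exon models. The set threshold of 12 or more A was thus met by 0 models in every set and does not separate the sets. Whether a filter removed such ends was not tested. With 10 or more A there were 2 intronless, 11 mixed and 1084 multi-exon models, and the medians were 4, 6 and 5 A.

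All 586 members had a rod count, since every model had one, and 498 were detected in BC, 481 in AC, 353 in cones, 306 in MG and 181 in RGC. At the depth of the RGC column the expected numbers were 384 in rods, 371 in BC, 364 in AC, 302 in cones, 274 in MG and 181 in RGC. In all 6 classes 131 members (22.4%) had counts, beside 25.1% of all models. At equal depth 46.8% of members were expected in MG, beside 52.4% of all models, and 62.1% in AC, beside 56.0%.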

How the data were processed

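Poly(A) RNA of single retinal cells was measured by nanopore long reads. The authors deposited whole-number counts per isoform in 6 cell-class columns and transcript models whose source field is FLAIR, per the file contents. Build mm10 is named in the submitters' processing notes. The counter, molecule collapsing, cell typing and isoform filters are not given in the sources used here. No column names a library, so all columns were taken as pooled, and 0 columns were left unused.

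Counts were used as deposited and scaled to 1000000 per column (CPM). Shares carry exact Clopper-Pearson and levels exact Poisson 95% intervals. Models were compared with GENCODE M21 (551 of 552 genes matched by identifier), and copies were found with blastn 2.17.0 (e-value at most 1e-20). No genome sequence was used, so sequences were read from M21 transcripts. Scaling alternatives came from edgeR 4.0.16 (trimmed mean of M-values) and DESeq2 1.42.0 (median of ratios), in R 4.3.3. Other steps used Python 3.11.15, pandas 2.3.3, numpy 2.4.6, scipy 1.17.1 and matplotlib 3.10.9. The rules of size were tested on simulated data.

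Members and lists were chosen with earlier results of these data known. Named genes were the 10 members with the most counts in each set, the restricted member with the most counts per class and set, the 10 mixed genes with the largest share difference, members of fixed lists with at least 100 counts, and members nearest to a threshold. Others named are said to be chosen after their values were seen, apart from copies with at least 1000 counts, which were chosen in the same way. Alternatives were other minimums, thresholds, scalings and definitions of the sets, and leaving out the RGC column, the gene with the most counts in each set, members over an exon of another gene, or copies.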

Additional observations from a re-analysis of the deposited data

How the results depend on the processing

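No paired analysis was possible because the deposited columns are cell classes that carry no library or replicate number. Of 152 alternatives over 36 results, 83 stayed within counting error or within 1.5 times the count, and 69 moved. Stricter minimums and thresholds leave fewer features by construction, and otherwise the cause was not tested.

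For mixed genes the share of gene counts in AC, BC, cones, MG, rods and RGC became 50.5%, 37.7%, 27.6%, 18%, 33.4% and 43.7% with intronless genes taken from M21. Without the gene with the most counts it was 24.2%, 21.8%, 22.5%, 12.4%, 28.3% and 17.1%. Without members over an exon of another gene on the same strand it was 52.2%, 37.8%, 26.3%, 14.1%, 31.5% and 46.0%. As a mean of per-gene shares it was 31.5%, 27.5%, 29.9%, 22.3%, 30.9% and 22.4%, so AC and rods came close. With members of at least 50 counts it was 50.5% in AC, 35.7% in BC, 24.8% in cones, 30.4% in rods and 43.9% in RGC, and with only modelled isoforms 50% in AC.

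For intronless genes, the share moved to 100% in AC, MG and RGC by M21 and to 99.6% in RGC with at least 50 counts. With only modelled isoforms it is 100% in every class by definition, which was counted as moved in AC, MG and RGC. Without the near-identical copies, an alternative chosen after seeing the data, it was 99.7% in AC, 99.7% in MG and 98.2% in RGC. As a mean of per-gene shares it was 98.7% in AC, 99.3% in BC, 100% in MG and 97.2% in RGC.

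Models with a share difference numbered 115 of 298 with at least 20 gene counts (38.6%, background 31.0%), 11 of 68 with at least 500 (16.2%, background 12.6%) and 11 of 189 at 50 points (5.82%, background 4.65%). Class-restricted members numbered 34 of 359 with at least 50 counts (9.47%, background 9.90%) and 27 of 556 at 95% (4.86%, background 7.78%).

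Against rods at 2-fold, 203 of 477 members were lower in BC (42.6%, background 37.8%), 40 of 402 higher (9.95%, background 11.9%) and 149 lower (37.1%, background 24.2%) in cones, and 167 of 413 lower in MG (40.4%, background 28.7%). In RGC 57 of 404 were higher (14.1%, background 16.4%) and 134 lower (33.2%, background 25.7%). With at least 50 counts in the pair of columns, 61 of 300 were higher (20.3%, background 20.2%) and 80 lower (26.7%, background 23.9%) in AC, and 39 of 270 higher (14.4%, background 12.7%) and 68 lower (25.2%, background 18.3%) in BC. In cones 10 of 230 were higher (4.35%, background 3.01%), in MG 20 of 226 higher (8.85%, background 10.7%) and 104 lower (46%, background 23.6%), and in RGC 16 of 225 higher (7.11%, background 11.7%). With at least 5 counts, 180 members were detected in MG and 118 in RGC.

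Ends near an annotated end made up 72.8% of intronless and 75.2% of mixed models within 200 bases, 19.3% of mixed models within 10 bases, and 71.8% and 85.4% when weighted by counts. Depth limits RGC most, where 30.9% of members had a count.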
